A study of Mus musculus with 6 samples.

Results

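The transcription factor NF-kappa-B and its feedback inhibitors were examined in haematopoietic stem cells (HSCs) through 10 genes listed by name: the inhibitor genes Nfkbia, Nfkbie, Nfkbiz, Nfkbid and Tnfaip3, and the subunit genes Rela, Rel, Relb, Nfkb1 and Nfkb2. All 10 were matched, each to 1 mouse Ensembl ID, among 28786 gene IDs of the deposited count table, and all 10 were among the 13662 genes tested. There were 3 libraries labelled TMRM-high and 3 labelled TMRM-low, all from the bone marrow of C57BL/6 wild type animals of 6 to 8 weeks. TMRM is a dye that collects in mitochondria according to their membrane potential, and the labels do not say where its gates were set. Each library was made from 1500 cells sorted for Sca-1, c-Kit and CD150 without lineage markers or CD48, with full-length cDNA amplified by 13 PCR cycles. The comparison asks how RNA levels of these genes differ between HSCs with a high and a low TMRM signal.

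NF-kappa-B is a pair of Rel family proteins held in the cytoplasm by inhibitors of the IkB type. Signals from receptors for TNF, interleukin 1 or microbial products activate the IKK kinase complex, which marks the inhibitor for destruction and frees the pair to enter the nucleus. Among the genes it then turns on are those of its own inhibitors, so that a pulse of activity ends itself. In blood stem cells the pathway is known for its part in the response to inflammation and in survival.

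Promoter windows of these genes are shown because NF-kappa-B binds a 10-base motif, the kappa-B consensus, and several of these inhibitors are textbook examples of its targets. RefSeq promoter windows on GRCm38.p6 were matched for 7 of the 10 genes (Nfkbia, Nfkbie, Nfkbid, Tnfaip3, Rela, Rel and Nfkb2), with 12 alternative starts in all, and the 250 bases before each start were searched on both strands. The consensus was found in 8 of these 12 windows and in 6 of the 7 genes, the exception being Rela. Of all 32851 windows of this length, 7.25% held it. A match is a description of letters and not evidence of binding in these cells.

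Below are the bases before the start of Nfkbia and Tnfaip3, the called genes whose windows held a match, written along the gene's own strand with the kappa-B matches in capitals. The Nfkbia window lies at chr12:55492648-55492897 on the minus strand. For Tnfaip3 only the bases between the start and the nearest annotated exon before it are given, at chr10:19015411-19015547 on the minus strand. The Nfkbia match lies 29 to 20 bases before the start, and those of Tnfaip3 lie 125 to 116 and 12 to 3 bases before it.
Nfkbia: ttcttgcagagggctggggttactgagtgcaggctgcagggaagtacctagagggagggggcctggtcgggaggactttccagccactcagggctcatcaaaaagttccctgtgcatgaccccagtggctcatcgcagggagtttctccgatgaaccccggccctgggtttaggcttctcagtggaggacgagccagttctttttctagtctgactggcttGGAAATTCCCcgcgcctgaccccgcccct
Tnfaip3: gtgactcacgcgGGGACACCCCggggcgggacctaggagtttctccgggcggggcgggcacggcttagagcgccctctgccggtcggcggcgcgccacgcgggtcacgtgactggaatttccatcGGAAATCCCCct

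For the other genes with a match, 1 stretch each is given with its flanks. These genes were added after their values were seen. Any likeness between the capitals follows from the search, which marks only stretches that fit the consensus. The match nearest the start is shown except for Nfkb2, which held matches before 3 of its starts: the site shown, 225 to 216 bases before one of them, was picked after the search, and another lies 11 to 2 bases before a different start. In Rel the capitals mark 2 overlapping matches, at 92 to 83 and 91 to 82 bases before the start. In the windows of Rel and of the Nfkb2 site shown, an annotated exon covers the base next to the start. How much of the rest exons cover was not recorded. The stretches shown lie at chr17:45555584-45555613 for Nfkbie, chr7:30422215-30422244 for Nfkbid, chr11:23771041-23771070 for Rel (minus strand) and chr19:46305695-46305724 for Nfkb2.
Nfkbie: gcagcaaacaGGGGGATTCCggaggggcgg
Nfkbid: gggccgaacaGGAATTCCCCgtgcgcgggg
Rel: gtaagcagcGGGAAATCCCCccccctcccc
Nfkb2: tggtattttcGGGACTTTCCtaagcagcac

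Each level below is in CPM, a count divided by its library's scaled size. Totals of the deposited counts were 14270069 to 22070594 in the TMRM-high libraries, against 15930495 to 18431567 in the TMRM-low libraries. The libraries of a group were much closer to each other in TMRM-high, where the biological coefficient of variation was 7.28%, than in TMRM-low, where it was 41.9%. Chi-square per degree of freedom between libraries of a group was 3.98 to 6.74 in TMRM-high libraries, against 46.0 to 51.4 in TMRM-low. Whether each library came from its own mouse is not in the labels, and the spread behind every p-value below may be technical. Of 15 HSC marker genes 5 were lower and 1 was higher in TMRM-high libraries, beside 5.12% lower and 5.84% higher over all genes tested. Their summed level was 934 to 940 CPM in TMRM-high libraries, against 1220 to 1277 CPM in TMRM-low libraries, and none was at 0 in either group. Ly6a, which encodes the sort marker Sca-1, averaged 30.4 ± 2.18 CPM in TMRM-high libraries, against 167.5 ± 7.77 CPM in TMRM-low libraries (SD, n = 3 each). Kit, which encodes c-Kit, averaged 263 ± 4.94 CPM in TMRM-high libraries, against 248 ± 53.9 CPM in TMRM-low libraries. Slamf1, which encodes CD150, averaged 5.53 ± 0.569 CPM in TMRM-high libraries, against 5.13 ± 3.98 CPM in TMRM-low libraries. Neither Kit nor Slamf1 passed (edgeR adjusted p = 0.778 and 0.944).

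Of the 5 inhibitor genes, Nfkbia, Nfkbiz and Tnfaip3 rose, by 3.03-fold, 2.56-fold and 5.53-fold, and Nfkbie and Nfkbid did not pass the test. Of the 5 subunit genes, 0 passed edgeR's quasi-likelihood test in either direction, while 0 were higher and 2 lower at an unadjusted p below 0.05. DESeq2 called 2 subunit genes lower and limma voom called 1. Over all 13662 genes tested, 5.84% were called higher and 5.12% lower, 11.0% in either direction, at a Benjamini-Hochberg adjusted p below 0.05. In bulk samples, fewer cells that make an RNA and less of it per cell cannot be told apart.

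**Figure D1:**
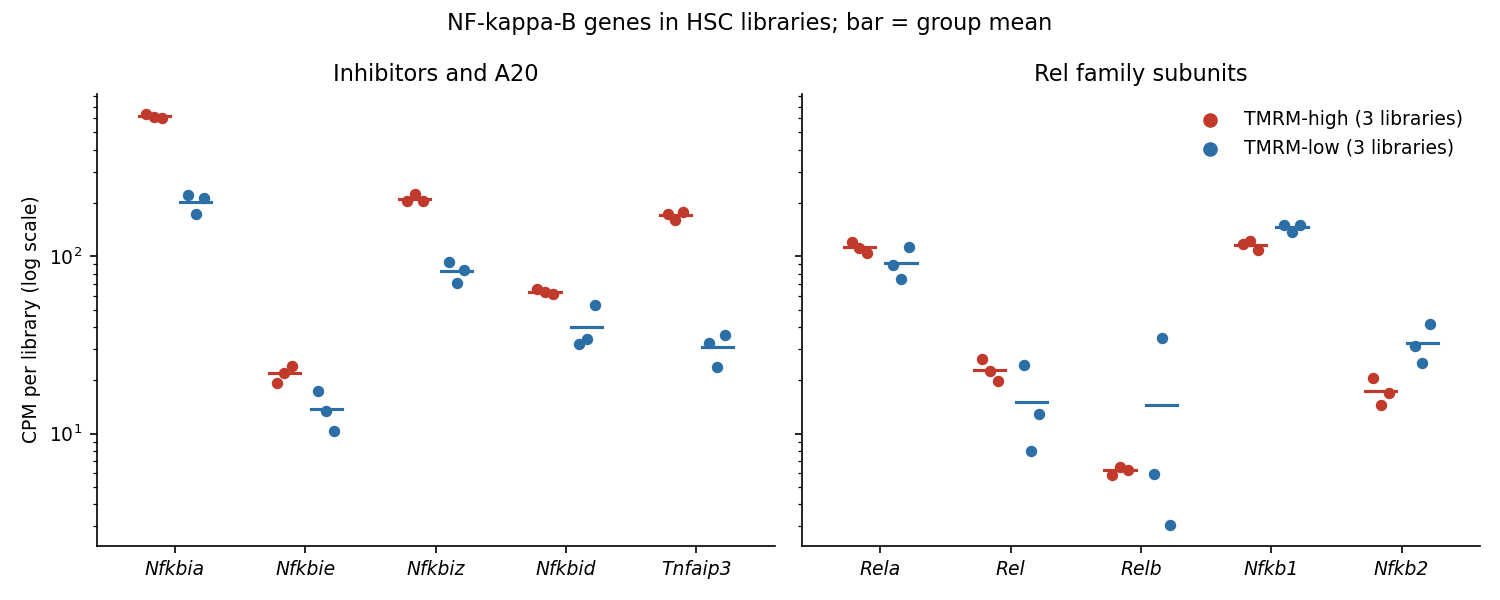
CPM of each of the 10 genes in the 3 TMRM-high (red) and 3 TMRM-low (blue) libraries, on a log axis, with the group mean as a bar. All 5 inhibitor genes have every TMRM-high library above every TMRM-low library, while Relb is at 34.7 CPM in 1 TMRM-low library and at 3.05 to 6.51 CPM in the other 5 libraries.

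Nfkbia encodes IkB-alpha, the inhibitor that is destroyed and remade in each pulse of NF-kappa-B activity (ENSMUSG00000021025, chromosome 12, 55489410 to 55492647 on GRCm38, minus strand). It had 634.7, 608.0 and 604.0 CPM in TMRM-high libraries and 223.1, 172.3 and 213.7 CPM in TMRM-low libraries. The lowest TMRM-high library stood far above the highest TMRM-low library, and the TMRM-high values had a coefficient of variation of 2.72%, against 13.3% in TMRM-low libraries. The log2 fold change was 1.60 (SE 0.0996, 95% interval 1.37 to 1.83, edgeR adjusted p = 0.000102), the 48th smallest p of all genes tested. It was higher in 3 of 3 TMRM-high libraries.

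Tnfaip3 encodes the ubiquitin-editing enzyme that shuts off signalling between the receptors and IKK (ENSMUSG00000019850, chromosome 10, 19000910 to 19015657, minus strand). Its levels were 172.4, 161.0 and 178.0 CPM in TMRM-high libraries, against 32.6, 23.9 and 35.9 CPM in TMRM-low libraries. This was the largest fold change of the 10 genes, and the groups lay far apart. The log2 fold change was 2.47 (SE 0.159, 95% interval 2.10 to 2.84, edgeR adjusted p = 0.000119), which ranked 496th by size and 55th by p among all genes tested.

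Nfkbiz encodes IkB-zeta, an atypical nuclear member of the inhibitor family that also acts as a co-activator of some targets (ENSMUSG00000035356, chromosome 16, 55811375 to 55838899, minus strand). It had 204.5, 224.4 and 206.1 CPM in TMRM-high libraries and 93.4, 70.3 and 84.2 CPM in TMRM-low libraries. Again no library of one group fell within the range of the other. The log2 fold change was 1.36 (SE 0.116, 95% interval 1.09 to 1.63, edgeR adjusted p = 0.000439). Its profile over the 6 libraries was also the one nearest to that of Nfkbia among the other 9 genes, at a root mean square distance of 0.137 on the centred log2 CPM scale, against 0.448 for Tnfaip3 and 0.507 to 1.54 for the rest. Such a distance includes any difference in fold change from Nfkbia.

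Nfkbid encodes IkBNS, another nuclear inhibitor (chromosome 7, 30421732 to 30428746). It stood at 65.2, 62.8 and 61.5 CPM in TMRM-high libraries and at 32.2, 34.3 and 53.0 CPM in TMRM-low libraries. The third TMRM-low library lay between the other 2 of its group and the TMRM-high libraries. The log2 difference of 0.66 had a 95% interval of 0.19 to 1.14 and did not pass (edgeR adjusted p = 0.0823). Without TMRM-low replicate 3 it was 0.93 and passed (edgeR adjusted p = 0.00499), and it passed with DESeq2 (0.0191) and limma voom (0.0329).

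Nfkbie encodes IkB-epsilon, a cytoplasmic inhibitor that acts with a delay after IkB-alpha (chromosome 17, 45555703 to 45563169). It had 19.4, 22.1 and 24.0 CPM in TMRM-high libraries, against 17.4, 13.4 and 10.3 CPM in TMRM-low libraries. The groups did not overlap, but the lowest TMRM-high and the highest TMRM-low library lay close together. The log2 difference was 0.67 with a 95% interval of 0.052 to 1.29 (edgeR adjusted p = 0.161), and 0.88 without TMRM-low replicate 1, where it passed (edgeR adjusted p = 0.0474). The groups therefore did not overlap for 5 of 5 inhibitor genes with TMRM-high above, as for 18.4% of all genes tested.

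Rela encodes the main activating subunit of the classical pathway (chromosome 19, 5637483 to 5648130). It had 120.8, 111.1 and 104.9 CPM in TMRM-high libraries and 89.0, 74.4 and 112.6 CPM in TMRM-low libraries. The third TMRM-low library lay inside the TMRM-high range. The log2 difference was 0.29 with a 95% interval of -0.075 to 0.65 (edgeR adjusted p = 0.304), and 0.46 without TMRM-low replicate 3, where it passed (edgeR adjusted p = 0.0422). The interval leaves out a rise as large as that of Nfkbia, whose own interval began at 1.37.

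Rel encodes c-Rel, an activating subunit abundant in lymphoid cells (chromosome 11, 23736847 to 23770970). Its 26.5, 22.5 and 19.7 CPM in TMRM-high libraries overlapped the 24.5, 7.99 and 12.9 CPM of TMRM-low libraries. The first TMRM-low library alone lay among the TMRM-high values. The log2 difference was 0.60 with a 95% interval of -0.33 to 1.53 (edgeR adjusted p = 0.408), and 1.14 without TMRM-low replicate 1, where it passed (edgeR adjusted p = 0.0480).

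Nfkb1 encodes a precursor that is cut to the DNA-binding partner of RelA (chromosome 3, 135584655 to 135691547). It had 117.8, 122.0 and 108.2 CPM in TMRM-high libraries and 150.3, 136.4 and 150.8 CPM in TMRM-low libraries, with every TMRM-high library below. The log2 difference of -0.33 had a 95% interval of -0.54 to -0.12 and narrowly failed the test (edgeR adjusted p = 0.0547). It passed without TMRM-low replicate 2 (-0.37, edgeR adjusted p = 0.0297), with DESeq2 (0.00779) and with upper-quartile scaling (edgeR adjusted p = 0.0478).

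Nfkb2 encodes the precursor of the alternative pathway, which acts with RelB (chromosome 19, 46304320 to 46312385). It had 20.6, 14.5 and 16.9 CPM in TMRM-high libraries and 31.1, 25.2 and 41.7 CPM in TMRM-low libraries, again with every TMRM-high library below. The log2 difference of -0.91 had a 95% interval of -1.50 to -0.32 (edgeR adjusted p = 0.0618). It passed without TMRM-low replicate 2 (-1.06, edgeR adjusted p = 0.0303), with DESeq2 (0.00790) and with limma voom (0.0369). The libraries do not mark strand, and 299 bases of its exons overlap Psd and 531 overlap a non-coding RNA gene on the other strand, so some of its reads may belong to those. Nfkb1 and Nfkb2 were the 2 subunit genes whose groups did not overlap, both with TMRM-high below, as for 17.0% of all genes tested. In either direction the groups lay apart for 7 of the 10 genes and for 35.4% of all genes tested.

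Relb encodes the activating subunit of the alternative pathway (chromosome 7, 19606217 to 19629438). It had 5.85, 6.51 and 6.25 CPM in TMRM-high libraries, against 5.90, 34.7 and 3.05 CPM in TMRM-low libraries. The second TMRM-low library alone was high, on 555.9 estimated counts against 102.4 and 55.6 in the other TMRM-low libraries. The log2 difference was -1.23 with a 95% interval of -3.13 to 0.68 (edgeR adjusted p = 0.405). Without TMRM-low replicate 2 its sign turned, to 0.47 (edgeR adjusted p = 0.470). No direction can be given for Relb from these libraries.

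**Figure D2:**
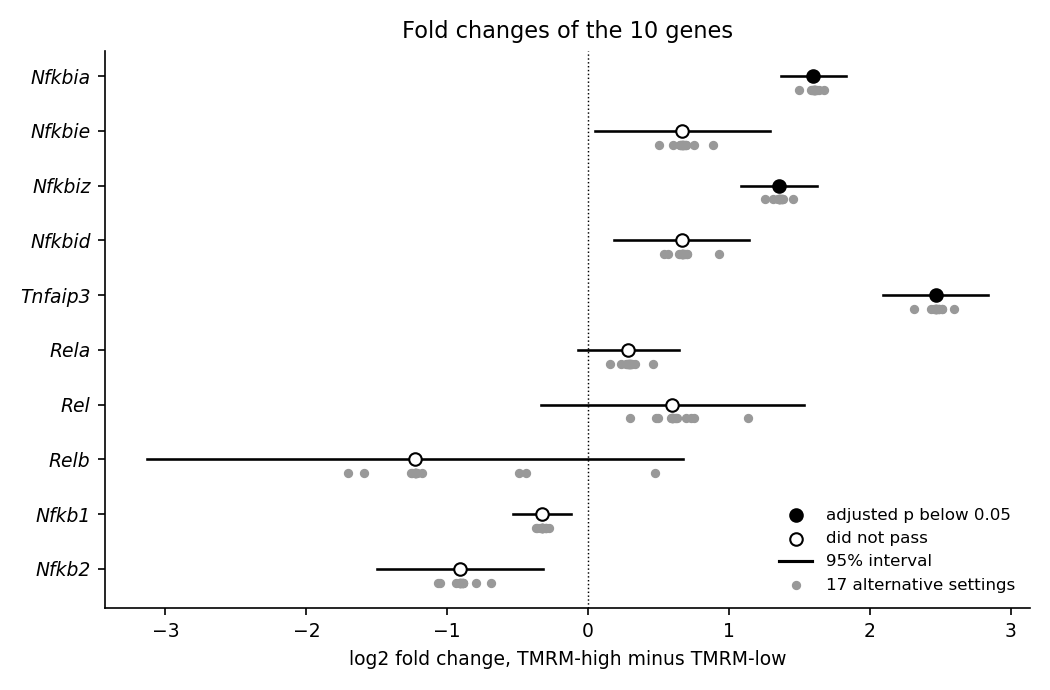
Log2 fold change (TMRM-high minus TMRM-low) of each gene with its 95% interval; filled points passed edgeR's test, open points did not, and grey points are the values under 17 alternative settings. Nfkbia, Nfkbiz and Tnfaip3 stay between 1.26 and 2.60 in every setting, while the points of Relb lie on both sides of 0.

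The rise of Nfkbia, Nfkbiz and Tnfaip3 passed the test in each of the 17 alternative settings, including each library left out and the TMRM-high libraries summed into 1. In that last setting, where the spread comes from the TMRM-low libraries alone, edgeR adjusted p-values were 0.00686 for Nfkbia, 0.0389 for Nfkbiz and 0.0123 for Tnfaip3. Scaling to library size plays no part in a ratio of counts within a library. Nfkbia had 5.26, 5.47 and 5.76 counts per count of Rela in TMRM-high libraries, against 2.51, 2.32 and 1.90 in TMRM-low libraries. Tnfaip3 had 1.43, 1.45 and 1.70 counts per count of Rela in TMRM-high libraries, against 0.366, 0.321 and 0.319 in TMRM-low libraries. Nfkbiz had 1.69, 2.02 and 1.97 in TMRM-high libraries, against 1.05, 0.946 and 0.748 in TMRM-low libraries. The groups lay apart for all 3 ratios, which were chosen after the values were seen and were not tested.

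Levels were set side by side between genes per kilobase of exon, with all annotated exons of a gene counted. Nfkbia was the most abundant of the 10 by a wide margin, at 382 ± 10.4 CPM per kilobase in TMRM-high libraries, against 126 ± 16.8 CPM per kilobase in TMRM-low libraries (SD, n = 3 each). In TMRM-high libraries Nfkbiz (42.2 ± 2.20), Rela (36.6 ± 2.61), Nfkbid (26.9 ± 0.802) and Tnfaip3 (23.6 ± 1.20 CPM per kilobase) came next. In TMRM-low libraries Rela was second at 29.9 ± 6.28 CPM per kilobase, ahead of Nfkbid (17.0 ± 4.88) and Nfkbiz (16.5 ± 2.31), and Tnfaip3 was eighth at 4.26 ± 0.858 CPM per kilobase. Nfkbid and Nfkbiz did not differ beyond their spread in TMRM-low libraries. By this length Rel and Relb were lowest in both groups, while by the longest coding transcript Nfkbie was ninth and Relb eighth in TMRM-low libraries. Rel had 3.07 ± 0.456 CPM per kilobase in TMRM-high libraries, against 2.03 ± 1.13 in TMRM-low libraries, and Relb had 1.60 ± 0.0858 in TMRM-high libraries, against 3.75 ± 4.51 in TMRM-low libraries, where the ranges of Rel and Relb overlapped. Per length of the longest coding transcript (4117 bases, against 12061 bases of all exons) Nfkb1 stood at 28.2 CPM per kilobase in TMRM-high libraries in place of 9.62, and came second in TMRM-low libraries at 35.4. By that length Tnfaip3 stood at 38.55 ± 1.96 CPM per kilobase in TMRM-high libraries, ahead of Nfkbid at 30.99 ± 0.922. Summed per kilobase of exon, the inhibitor genes stood to the subunit genes at ratios of 8.41, 8.84 and 9.30 in TMRM-high libraries and 3.42, 2.81 and 2.97 in TMRM-low libraries. With the longest coding transcripts the ratios were 6.27 to 6.86 in TMRM-high libraries and 1.84 to 2.33 in TMRM-low libraries. Most of the inhibitor sum is Nfkbia. Without it the other 4 inhibitors summed to 98.8 to 101.1 CPM per kilobase of exon in TMRM-high libraries, above the subunits, and to 36.4 to 47.8 in TMRM-low libraries, below the subunits in each library. The summed subunits were at 51.1 to 58.6 CPM per kilobase in TMRM-high libraries, against 51.0 to 60.8 CPM per kilobase in TMRM-low libraries, and these ranges overlap.

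**Figure D3:**
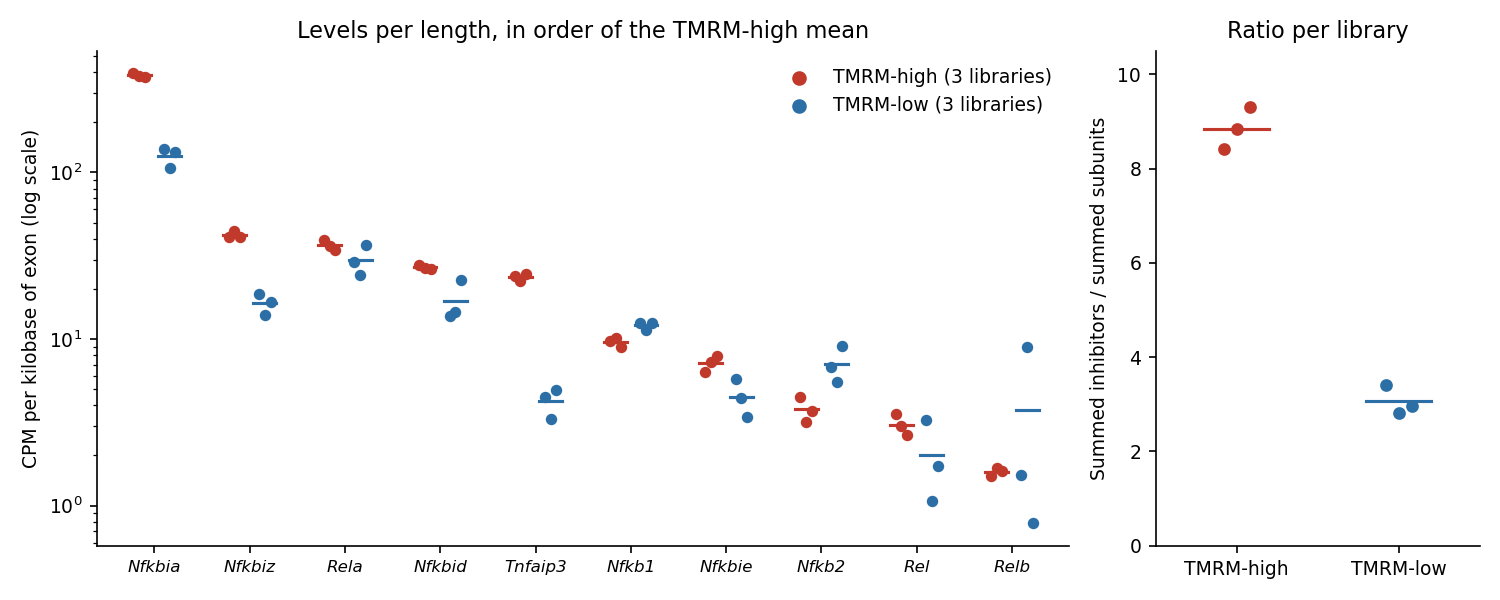
Left, CPM per kilobase of exon of each gene by library on a log axis, in order of the TMRM-high mean, with TMRM-high in red, TMRM-low in blue and the group mean as a bar. Right, the summed level of the 5 inhibitor genes over that of the 5 subunit genes in each library, 8.41 to 9.30 in TMRM-high libraries, against 2.81 to 3.42 in TMRM-low libraries.

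The rest of the pathway was described from lists by role, with medians beside a median log2 fold change of -0.032 over all genes tested. The counts called stand beside 5.84% higher and 5.12% lower over all genes tested. Of 19 other inhibitors and feedback genes, 18 did not pass. Among these, Otulin, a deubiquitinase, had 81.3 ± 4.06 CPM in TMRM-high libraries, against 95.2 ± 10.1 CPM in TMRM-low libraries, and Commd1 had 78.7 ± 3.61 CPM in TMRM-high libraries, against 84.4 ± 11.2 CPM in TMRM-low libraries. The 1 that did, Tnip3, an inhibitor that binds the Tnfaip3 protein, was lower, at 5.49 ± 0.957 CPM in TMRM-high libraries, against 19.4 ± 8.56 CPM in TMRM-low libraries (log2 fold change -1.82, edgeR adjusted p = 0.0331). The number lower lies near the share of 5.12% over all genes tested, and the list's median was -0.18. With edgeR 0 were higher and 1 lower, at an unadjusted p below 0.05 1 was higher and 3 lower, with DESeq2 1 was higher and 3 lower, and with limma voom 0 were higher and 1 lower.

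Of 34 IKK kinases and adaptors 3 were higher and 31 did not pass, with a median of 0.10. The number higher lies near the share of 5.84% over all genes tested. The 3 were Bcl10, a scaffold between antigen receptors and IKK (log2 fold change 0.71, SE 0.119), the IKK-related kinase gene Ikbke (0.79, SE 0.177) and Tab3, an adaptor of the kinase upstream of IKK (1.29, SE 0.306). DESeq2 called 3 of the list higher and 2 lower, and limma voom 1 higher and 1 lower, where Ikbke (adjusted p = 0.056) and Tab3 (0.104) did not pass. Irak1, a kinase of interleukin 1 and Toll-like receptor signalling, had 178 ± 6.00 CPM in TMRM-high libraries, against 163 ± 13.8 CPM in TMRM-low libraries and did not pass. Of 21 receptor genes tested, Cd14, a co-receptor for bacterial lipopolysaccharide on myeloid cells, was higher, at 29.2 ± 0.659 CPM in TMRM-high libraries, against 4.30 ± 3.58 CPM in TMRM-low libraries (log2 fold change 2.76, SE 0.617). Tnfrsf11a, which encodes the receptor RANK, was lower (-0.81, SE 0.195), and Tnfrsf1a, the main TNF receptor gene, had 60.6 ± 5.83 CPM in TMRM-high libraries, against 77.6 ± 12.3 CPM in TMRM-low libraries and did not pass. Of the receptor list 1 was higher, 1 was lower and 19 did not pass, with a median of -0.34. These numbers lie near the shares of 5.84% higher and 5.12% lower over all genes tested.

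Among 10 ligand genes tested, Tnf was higher and Ltb, Tnfsf14 and Il18 were lower, while the list's median was 0.28. Apart from Tnf, the genes with a positive difference averaged at most 2.44 CPM in TMRM-high libraries, and none of them passed. The summed level of the 12 listed ligands ran the other way, at 83.8 to 86.0 CPM in TMRM-high libraries, against 139.9 to 163.1 CPM in TMRM-low libraries. In TMRM-low libraries most of that sum was Ltb, at 90.6 ± 6.72 CPM, against 19.0 ± 3.33 CPM in TMRM-high libraries. The sum therefore does not describe the ligands as a set. Tnf, the classical activator of the pathway and itself a target, had 30.6, 35.3 and 36.2 CPM in TMRM-high libraries and 8.97, 5.43 and 2.18 CPM in TMRM-low libraries (log2 fold change 2.62, SE 0.470, edgeR adjusted p = 0.0130). Ltb, which encodes lymphotoxin beta, an activator of the alternative pathway, had 22.5, 18.6 and 15.8 CPM in TMRM-high libraries and 86.8, 98.4 and 86.6 CPM in TMRM-low libraries (log2 fold change -2.25, SE 0.168, edgeR adjusted p = 0.000213). The groups of both ligands lay far apart, in opposite directions. Tnfsf14, a ligand of the lymphotoxin beta receptor (-1.35, SE 0.310), and Il18 (-1.09, SE 0.269) were lower as well.

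Of 40 textbook NF-kappa-B target genes tested, 12 were higher, 2 were lower and 26 did not pass, with a median of 0.35. Higher were the chemokine genes Ccl4, Cxcl1, Cxcl2 and Cxcl10, the cytokine genes Tnf and Il6, the adhesion gene Vcam1, and Ier3, Gadd45b, Junb, Marcksl1 and Olr1. Ccl4 averaged 400.0 ± 10.3 CPM in TMRM-high libraries, against 174 ± 12.1 CPM in TMRM-low libraries, and Ier3, an early response gene, 331 ± 15.1 CPM in TMRM-high libraries, against 139 ± 11.5 CPM in TMRM-low libraries. Called targets beyond Ccl4, Ier3, Cxcl10 and Ccl5 were named after their values were seen. Cxcl10 had 41.8, 39.1 and 39.2 CPM in TMRM-high libraries and 4.63, 2.93 and 3.59 CPM in TMRM-low libraries (log2 fold change 3.42, SE 0.250, edgeR adjusted p = 0.000186). Of the 12 higher targets, Cxcl1, Il6, Vcam1 and Olr1 reached the low-count filter in every library of the TMRM-high group only, so that they entered the test through the group where they are high, and the count and median of the list carry that limit. Cxcl1 reached at most 1.08 CPM and Il6 at most 1.22 CPM in any library, and with limma voom neither passed (adjusted p = 0.0837 for Cxcl1 and 0.089 for Il6). Ccl5, a chemokine gene of T and NK cells, was lower, at 5.41 ± 1.61 CPM in TMRM-high libraries, against 59.1 ± 2.24 CPM in TMRM-low libraries (log2 fold change -3.44, SE 0.256, edgeR adjusted p = 0.000226), and so was Myc (-0.57). Ccl3 (187 ± 1.68 CPM in TMRM-high libraries, against 175 ± 20.6 CPM in TMRM-low libraries) and Sod2 (115 ± 2.83 CPM in TMRM-high libraries, against 123 ± 13.7 CPM in TMRM-low libraries), both common targets, did not pass. This list shares 4 genes with the other inhibitors, 3 with the immediate early genes, 2 with the ligands, 1 with the kinases and adaptors and 1 with the macrophage markers.

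**Figure D4:**
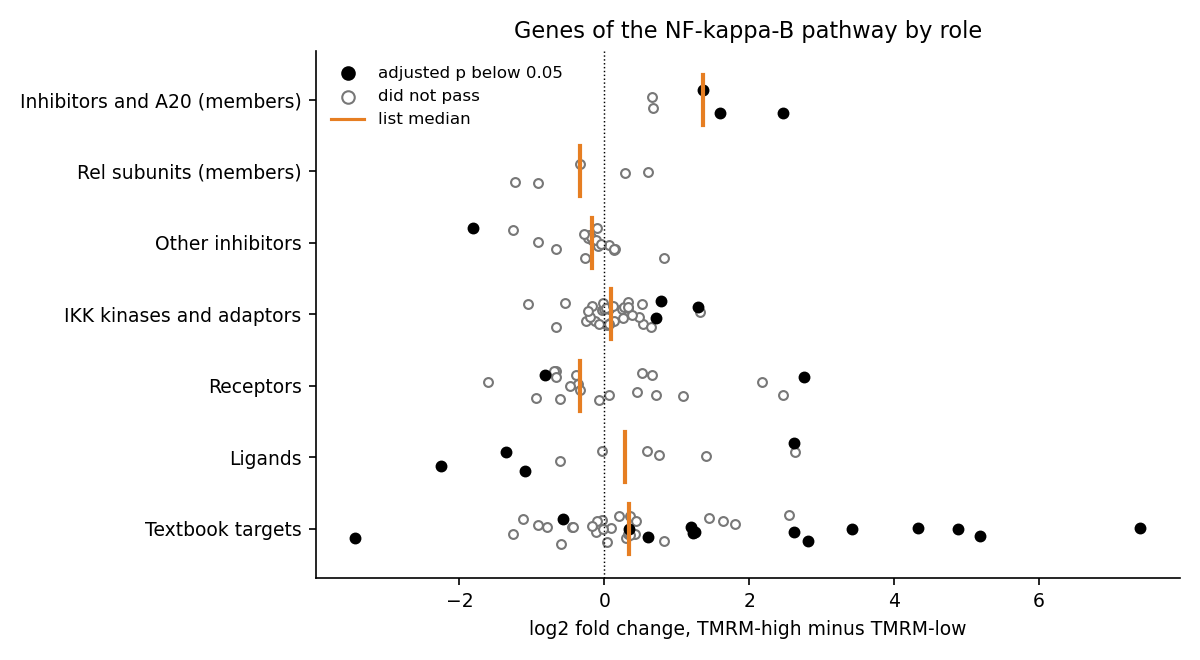
Fitted log2 fold change (TMRM-high minus TMRM-low) of every tested gene by role in the pathway; filled points passed edgeR's test, open points did not, and the orange line is the list's median. Of the textbook targets 12 lie to the right among the filled points and 2 to the left, while most kinases, adaptors and other inhibitors are open points near 0.

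Many of these calls did not hold with fewer TMRM-high libraries. Tnip3, Bcl10, Ikbke, Tab3, Cd14, Tnfrsf11a, Tnf, Tnfsf14, Il18, Il6, Gadd45b and Junb lost their calls without any 1 TMRM-high library, with edgeR adjusted p-values of 0.0588 to 0.217. Their log2 fold changes moved little in several cases, for Cd14 to 2.74 to 2.78, for Tnf to 2.58 to 2.70 and for Bcl10 to 0.70 to 0.73. Cxcl1 lost its call in 1 of these 3 settings (0.113). Tnip3 also failed without TMRM-low replicate 1 (0.0581) or 3 (0.0512), Cd14 without TMRM-low replicate 2 (0.0682), Il6 without TMRM-low replicate 2 (0.0675) or 3 (0.0575), and Gadd45b without TMRM-low replicate 1 (0.0573) or 2 (0.0802). With the TMRM-high libraries summed, 3 targets were higher and 1 lower. Ltb, Ccl4, Ier3, Ccl5 and Vcam1 kept their calls there, while Cxcl10 (edgeR adjusted p = 0.0578) and Myc (0.277) lost theirs.

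Early response genes and markers of several other blood cells were higher in TMRM-high libraries, while most called T and NK cell and dendritic cell markers were lower. Over all genes tested 5.84% were higher and 5.12% lower. Of 23 immediate early genes tested 18 were higher, 1 (Myc) was lower and 4 did not pass. Those higher included Egr1 (875 ± 28.7 CPM in TMRM-high libraries, against 377 ± 26.5 CPM in TMRM-low libraries) and Zfp36 (1298 ± 24.9 CPM in TMRM-high libraries, against 661 ± 33.4 CPM in TMRM-low libraries). The immediate early list summed to 12110 to 12600 CPM in TMRM-high libraries, against 6911 to 7521 CPM in TMRM-low libraries. Of 12 granulocyte and monocyte markers 11 were higher, with a sum of 15210 to 15600 CPM in TMRM-high libraries, against 3648 to 4020 CPM in TMRM-low libraries. The 10 B lymphoid markers were called higher, 4 of them having reached the low-count filter only through TMRM-high libraries, and limma voom called 9, with a sum of 2024 to 2052 CPM in TMRM-high libraries, against 539 to 627 CPM in TMRM-low libraries, and Ms4a1 was at 0 in TMRM-low libraries. Of 8 basophil and mast cell markers 4 were higher (309 to 323 CPM in TMRM-high libraries, against 56.4 to 70.5 CPM in TMRM-low libraries). Of 9 macrophage markers 2 were higher and 2 lower (149 to 163 CPM in TMRM-high libraries, against 52.5 to 83.0 CPM in TMRM-low libraries), with Marco at 0 in TMRM-high libraries. Of 8 T and NK markers 1 was higher and 4 lower (618 to 625 CPM in TMRM-high libraries, against 353 to 445 CPM in TMRM-low libraries). That sum is mostly Nkg7, at 556 ± 6.18 CPM in TMRM-high libraries, against 218 ± 24.1 CPM in TMRM-low libraries. Of 10 dendritic markers 6 were lower (520 to 546 CPM in TMRM-high libraries, against 1169 to 1305 CPM in TMRM-low libraries). Of 10 erythroid markers 6 were higher and 1 lower (534 to 545 CPM in TMRM-high libraries, against 572 to 668 CPM in TMRM-low libraries), a sum led by Car2, which was lower, at 316 ± 7.13 CPM in TMRM-high libraries, against 552 ± 54.5 CPM in TMRM-low libraries. The low-count filter was reached through the higher group alone by 2 of the called basophil and mast cell markers, 2 of the macrophage, 1 of the T and NK and 1 of the erythroid markers. The part of these genes in the rise of the inhibitor genes was not tested.

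Among 7369 other genes with a mean of at least 20 CPM, those whose centred log2 CPM profile over the 6 libraries lay nearest to that of Nfkbia included Rgs1, Anxa3, Mpo and Gadd45a, at root mean square distances of 0.0911 to 0.104. Rgs1, a regulator of G protein signalling, averaged 1113 ± 47.3 CPM in TMRM-high libraries, against 405 ± 47.0 CPM in TMRM-low libraries. The granulocyte enzyme gene Mpo averaged 5534 ± 46.7 CPM in TMRM-high libraries, against 1844 ± 66.0 CPM in TMRM-low libraries, and the stress response gene Gadd45a 43.0 ± 2.99 CPM in TMRM-high libraries, against 14.1 ± 2.34 CPM in TMRM-low libraries. Log2 fold changes of these 4 genes were 1.45 to 1.61, beside 1.60 for Nfkbia. The genes were picked by likeness over the same libraries, so fold changes near that of Nfkbia follow from the choice.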

How the data were processed

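RNA was measured in 3 TMRM-high and 3 TMRM-low libraries, grouped by their titles. The submitters' processing notes name the tools Trim Galore (0.5.0) and Salmon (0.03.1, as listed) and the build GRCm38, with no further settings. The values the authors deposited are estimated counts per gene, not scaled to depth, and were rounded to whole numbers here. The libraries mark neither strand nor molecules, so PCR copies count as reads. Symbols were matched for 27728 of 28786 IDs, and positions come from GENCODE M21.

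Genes were kept by filterByExpr. edgeR 4.0.16 in R 4.3.3 fitted a quasi-likelihood model with TMM scaling and the group as its only term, with p-values two-sided and Benjamini-Hochberg adjusted over all genes tested. Each SE is the size of the log2 fold change over the root of its F statistic. CPM use TMM-scaled library sizes of the tested genes. The 10 genes and all lists were chosen with earlier results of these data known. Genes named from the lists are up to 4 called with the smallest p and up to 2 that did not pass. Slamf1 and some called targets were named in addition, after their values were seen. Of the 5 genes nearest to Nfkbia in profile, 1 is not reported here. DESeq2 1.42.0 and limma 3.58.1 were alternatives, with other scalings, filters, thresholds and libraries left out.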

Additional observations from a re-analysis of the deposited data

How the results depend on the processing

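Over 17 alternative settings the 10 genes gave 170 values. Of these, 154 kept their direction and side of the threshold, 15 newly passed, 0 lost a call and 1 reversed. The reversal was Relb, at 0.47 without TMRM-low replicate 2, where the highest library is left out (-1.70 to 0.47 over the libraries left out). The settings at an adjusted p of 0.10 and at least 2-fold reused the edgeR fit, so none of the 10 could lose a call in them. The members called lower, 0 in the edgeR fit, numbered 1 with upper-quartile scaling, 2 with DESeq2, 1 with limma voom and 2 at an adjusted p of 0.10. At 0.10 only the threshold differs, and Nfkb1 (edgeR adjusted p = 0.0547) and Nfkb2 (0.0618) lie between it and 0.05. For the other settings the cause was not tested. Over all genes, DESeq2 called 1324 higher and 1337 lower, against 798 and 700 with edgeR; 1138 were lower at an adjusted p of 0.10, and 434 higher and 300 lower with at least 2-fold. With the TMRM-high libraries summed, 86 were higher and 42 lower, in a fit with 1 library in that group. With a library left out, 3 to 5 members were higher and 0 to 2 lower, and over all genes 250 to 1398 were higher and 181 to 1174 lower. With the replicate number as a block 582 genes were higher and 449 lower, and 3 members higher and 0 lower, as without it. Deviations of same-numbered libraries correlated at -0.0042, 0.020 and 0.035, not every library correlated best with its own number, and the samples share only a number.

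A gene that did not pass can still differ: intervals of the uncalled members reached a log2 difference of 1.53 for Rel and -3.13 for Relb. Intervals cover the spread between 3 libraries a group.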
